A study of Mus musculus with 4 samples.

Results

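The 10 genes described here are adipocyte genes: Adipoq, Cfd, Lep and Retn, which encode secreted products, Plin1 and Cidea of the lipid droplet coat, the lipase gene Lipe, the fatty acid binding protein gene Fabp4, the carbonic anhydrase gene Car3 and the nuclear receptor gene Pparg. They were taken by symbol or synonym from the probe sets annotated to exactly 1 gene, which gave 9 probe sets for 8 of the 10 genes, out of 8252 genes with such a probe set. Cfd and Plin1 matched none and were not analysed here. The samples were ventricles of mice without the nuclear receptor ERRα (labelled ERRa ko) and ventricles of wild-type mice (labelled ERRa wt), both at baseline, that is without pressure overload. Total RNA of each sample was hybridised to a 1-colour Affymetrix oligonucleotide array, with 2 arrays for the knockout and 2 for the wild type. The labels used here give no strain, age or sex, and do not describe the targeted allele or say in which cells it acts. They also do not say whether the samples of a genotype came from separate animals. Any p-value thus reflects how far these particular samples scatter, pooled in part over all probe sets tested, and that scatter may be technical.

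White adipocytes store triglyceride in a large droplet and release fatty acids from it by lipolysis, and they secrete hormones such as adiponectin and leptin. Brown adipocytes burn fatty acids in mitochondria, a program in which ERRα, its relative PPARγ and the coactivator PGC-1α take part. A mouse heart carries little fat, mainly around the epicardium and the atrioventricular groove, and several genes of the adipocyte program are also transcribed in cardiomyocytes, capillary endothelium or macrophages. In RNA from whole ventricle, fewer cells of a type and less RNA per cell cannot be told apart.

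The deposited signals had been scaled, and their mean, trimmed by 2% at either end, was 1499.6 on each array. Esrra, the gene of ERRα, gave 83.6 and 55.2 in knockout against 2688 and 2828 in wild type on its weaker probe set (limma adjusted p = 0.0441), and 922 and 1050.2 against 8598 and 8039 on its stronger one (limma adjusted p = 0.179). The ratio of 5′ to 3′ signal of β-actin, a measure of RNA and cDNA integrity, was 0.694 and 0.813 on the knockout arrays and 0.966 and 0.909 on the wild-type arrays. For Gapdh it was 0.994 and 0.968 in knockout and 1.04 and 1.01 in wild type. Both ratios were lower on both knockout arrays, so an effect of integrity cannot be told apart from one of genotype. Spearman correlations across probe sets lay between 0.927 and 0.941 for the 6 pairs of arrays, and did not group the arrays by genotype. The highest was between knockout replicate 1 and wild-type replicate 2, while the knockout pair gave 0.933 and the wild-type pair 0.935.

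None of the adipocyte probe sets differed between genotypes past the threshold. For the test, probe sets with a mean signal under 350.6 were left out, signals under a floor of 110.0 were set to it, and limma was run on the log2 values. Of the 9 probe sets 7, of 6 genes, were tested, and 0 had an adjusted p under 0.05, against 1 of all 7453 probe sets (0.0134%). That 1 was the weaker probe set of Esrra, the gene knocked out. At an unadjusted p under 0.05, limma gave 2 higher in knockout (Adipoq and 1 of the Lep probe sets) and 1 lower (Cidea), where 4.13% of all probe sets were higher and 2.66% lower. The same 3 probe sets were at least 1.5-fold apart with both knockout arrays beyond both wild-type arrays, 2 higher and 1 lower, against 6.84% and 4.20% of all probe sets. Counted by gene and at any size of difference, 3 of the 6 had both knockout arrays above both wild-type arrays (Adipoq, Lep and Lipe) and 1 had both below (Cidea), where 19.9% and 17.5% of all 5653 genes did. Lep counts here by the stronger of its probe sets, and by the other the count was 2 above and 1 below. The genes were chosen with earlier results of these arrays known, so these counts describe them and are not independent evidence of a direction. Adipoq and Car3 also passed the filter only through their knockout signal, with wild-type means of 243 and 335 against a filter of 350.6. By the rule of 1.5-fold without overlap, 2 probe sets counted as lower without knockout replicate 2 or without wild-type replicate 1, the second Lep probe set being the added one. As higher, 3 counted without knockout replicate 1 (with Car3) and 3 without wild-type replicate 1 (with Lipe). Without wild-type replicate 2 the number stayed at 2, with Car3 in and Lep out.

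**Figure D1:**
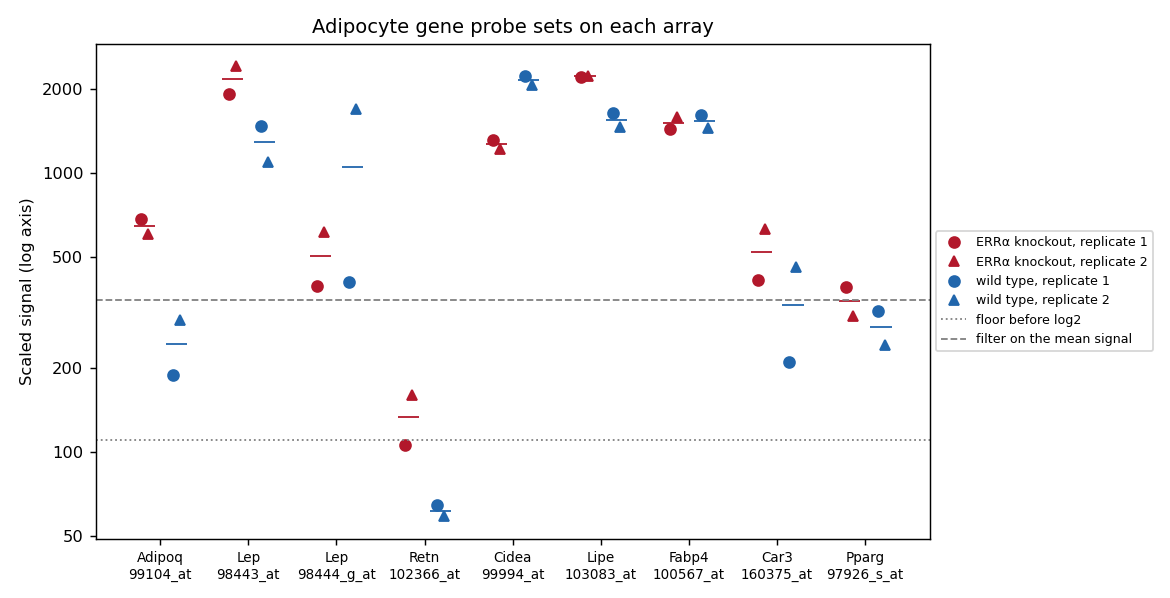
Scaled signal (log axis) of the 9 adipocyte probe sets on each array, with knockout in red left of wild type in blue, circles for replicate 1, triangles for replicate 2 and a bar at each group's mean. The groups stand apart for Adipoq, Cidea, Lipe, Retn and the Lep probe set with no letter suffix, with Cidea the one that was lower in knockout, and Retn lies under the floor (dotted) on 3 arrays.

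Among the secreted products, adiponectin showed the largest difference of all the adipocyte probe sets tested. Adipoq encodes this hormone, which adipocytes release in large amounts and which acts on muscle, liver and heart. Its probe set gave 686 and 604 in knockout, against 189 and 297 in wild type. Both knockout values thus lay above both wild-type values, the lower of them 2.03 times the higher wild-type value. The means were 645 ± 57.8 in knockout and 243 ± 76.9 in wild type (SD, n = 2 each). On the log2 scale the difference was 1.44 (SE 0.30, 95% interval 0.65 to 2.23). It did not pass over all probe sets (limma adjusted p = 0.694). Of the probe sets tested, 0.78% had a smaller unadjusted p. That rank is not independent evidence, because the gene was chosen with earlier results of these arrays known. Adipoq also passed the filter only through its knockout signal, and a stricter filter left it out. A floor raised to the 40th percentile, above both wild-type values, brought the log2 difference to 0.92, and leaving out each array in turn gave 1.11 to 1.77.

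Leptin, the hormone by which fat stores signal to the hypothalamus, was measured by a pair of probe sets with differences of opposite sign. On the probe set with no letter suffix, Lep gave 1927 and 2409 in knockout, against 1480 and 1096 in wild type (1479.5 before rounding for wild-type replicate 1). The groups did not overlap, with means of 2168 ± 341 in knockout and 1288 ± 271 in wild type and a log2 difference of 0.76 (SE 0.26, 95% interval 0.06 to 1.46, limma adjusted p = 0.705). On the probe set with the suffix g, which marks probes shared with another probe set, Lep gave 393 and 612 in knockout, against 408 and 1694 in wild type. Wild-type replicate 2 alone stood high there, 4.15 times wild-type replicate 1, and the same array was the lowest of the 4 on the other probe set. The log2 difference of the g probe set was -0.76 (SE 0.74, 95% interval -2.72 to 1.20, limma adjusted p = 0.857) and turned to 0.27 without wild-type replicate 2. The annotation gives no accession for either Lep probe set. Whether either detects leptin mRNA, and which of them gives the direction for Lep, cannot be told from these arrays.

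Resistin, an adipocyte hormone of the mouse encoded by Retn, was near the bottom of the signal range. Its probe set gave 106 and 160.0 in knockout, against 64.4 and 58.9 in wild type. The knockout values were the higher ones, but 3 of the 4 arrays lay under the floor, and with its mean under the filter the probe set was not tested and no fold is given. Cfd, which encodes adipsin, a complement protease made by adipocytes, was not analysed.

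The start regions of Adipoq and Lep, the adipokine genes that were tested, are given here as RefSeq windows of GRCm38.p6 that begin 250 bases before the annotated start, to show what a search for binding motifs covered. Adipoq is at chr16:23146286-23146585 and Lep at chr6:29059971-29060270, both on the plus strand. Capitals mark a match to TTGCNNAA on either strand, the C/EBP site, bound by C/EBPα and related factors of adipocyte differentiation.
Adipoq: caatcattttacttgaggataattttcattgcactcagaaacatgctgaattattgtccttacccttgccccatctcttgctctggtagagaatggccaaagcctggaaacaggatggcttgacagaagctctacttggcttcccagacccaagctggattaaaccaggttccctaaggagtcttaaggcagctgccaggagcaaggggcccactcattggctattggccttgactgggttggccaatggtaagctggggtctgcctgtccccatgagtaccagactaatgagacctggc
Lep: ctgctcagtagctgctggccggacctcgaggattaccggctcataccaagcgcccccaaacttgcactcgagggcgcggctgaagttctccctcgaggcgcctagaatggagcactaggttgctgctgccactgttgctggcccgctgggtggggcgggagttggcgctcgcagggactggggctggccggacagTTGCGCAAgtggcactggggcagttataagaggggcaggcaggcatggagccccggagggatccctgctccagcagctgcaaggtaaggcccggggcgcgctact

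The Lep window held 1 match, whose first base lay 55 bases before the start, and the Adipoq window held none. RefSeq windows were found for 7 of the 10 genes, 10 windows in all. Fabp4, Car3 and Cidea had no window and were not searched. Matches to TTGCNNAA stood in 3 of these (in Lep, Plin1 and Pparg), while 10.8% of all 32851 windows hold one. The ERR response element TNAAGGTCA, searched on both strands, was in 0 of the 10 and in 1.28% of all windows. The DR1 element bound by PPARγ with RXR is a direct repeat of AGGTCA with 1 base between the copies. It was in 0 of the 10 and in 0.0396% of all. With shares this low, 0 of 10 says little about these genes. Single copies of AGGTCA, which both of those motifs contain, were in 2 of the 10 windows, both of Pparg, and in 16.3% of all. TTGCNNAA and AGGTCA were added to the search after the arrays had been read.

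The lipid droplet and lipolysis genes tested, Cidea and Lipe, had differences of opposite sign. Cidea, which encodes a droplet protein of brown adipocytes that promotes droplet fusion and is a reported target of ERRα and its cofactors in brown fat cells, gave 1315 and 1224 in knockout, against 2222 and 2076 in wild type. It was the only adipocyte gene with both knockout arrays under both wild-type arrays, and the lower wild-type array was 1.58 times the higher knockout array. The means were 1269 ± 64.5 in knockout and 2149 ± 103 in wild type, a log2 difference of -0.76 (SE 0.20, 95% interval -1.29 to -0.23, limma adjusted p = 0.694). Its spread within genotypes was small, with a residual SD of 0.07 on the log2 scale against a median of 0.25 over all probe sets tested. Over the 13 alternative settings in which it was recomputed its log2 difference lay between -0.88 and -0.71.

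Lipe encodes hormone-sensitive lipase, which releases fatty acids from stored glycerides in adipocytes and is also made in heart muscle. It gave 2201 and 2236 in knockout (2235.5 before rounding), against 1643 and 1464 in wild type. Both knockout arrays lay above both wild-type arrays, with means of 2218 ± 24.1 in knockout and 1553 ± 126 in wild type. The log2 difference of 0.52 (SE 0.20, 95% interval -0.02 to 1.05) did not pass (limma adjusted p = 0.743), and at 1.43-fold it fell short of 1.5-fold. Plin1, which encodes the perilipin that coats the white adipocyte droplet and gates lipolysis, was not analysed.

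Fabp4 was the member closest to equal between the genotypes. It encodes the adipocyte fatty acid binding protein aP2, which capillary endothelium and macrophages also make. It gave 1433 and 1588 in knockout, against 1616 and 1447 in wild type. The groups overlapped fully, with means of 1510.3 ± 110 in knockout and 1532 ± 120 in wild type (SD 109.9 and 119.5 before rounding). The log2 difference was -0.02 (SE 0.21, limma adjusted p = 0.985), and its 95% interval, -0.57 to 0.53, covers a knockout level from 0.675 to 1.44 times that of wild type.

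Car3 and Pparg were weak and overlapped between the genotypes. Car3, which encodes a carbonic anhydrase abundant in adipocytes, slow skeletal muscle and liver, gave 413 and 627 in knockout (412.5 for replicate 1), against 211 and 459.7 in wild type. The replicates of each genotype were far apart, 1.52-fold in knockout and 2.18-fold in wild type, and wild-type replicate 2 lay above knockout replicate 1. The log2 difference was 0.71 (SE 0.47, 95% interval -0.52 to 1.94, limma adjusted p = 0.820), and leaving out each array in turn gave 0.15 to 1.27, the lowest without wild-type replicate 1. Pparg encodes PPARγ, the nuclear receptor that drives adipocyte differentiation. It gave 389.6 and 307 in knockout, against 320.0 and 242 in wild type (241.5 for replicate 2). The values overlapped, and the mean signal over the arrays, 315, was under the filter. Tested with no filter, the log2 difference of Pparg was 0.32 (SE 0.24, limma adjusted p = 0.838).

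**Figure D2:**
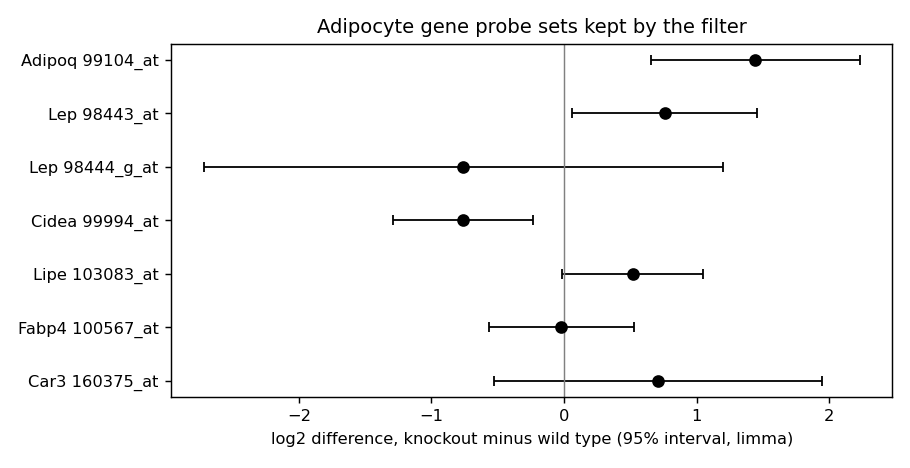
Log2 difference, knockout minus wild type, of the 7 adipocyte probe sets tested, with the 95% interval from limma. Adipoq at 1.44 and Cidea at -0.76 have intervals clear of 0, as does the Lep probe set with no letter suffix at 0.76, while the Lep probe set with the suffix g has the widest interval, -2.72 to 1.20.

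The order of the arrays was not the same for all members. Knockout replicate 2 was the highest array for 4 of the 9 probe sets, knockout replicate 1 and wild-type replicate 1 for 2 each, and wild-type replicate 2 for 1. Wild-type replicate 2 was the lowest for 4. Their residual SD within genotypes ran from 0.07 for Cidea and 0.08 for Lipe to 0.64 for Car3 and 1.08 for the g probe set of Lep. The last of these was above 96.6% of all probe sets tested. With the strongest probe set per gene, the median log2 difference over the 6 genes tested was 0.61, and over all 5653 genes it was 0.01. That median was 0.37 without wild-type replicate 1, 0.25 with a filter at the 60th percentile, which left 4 genes, and 0.26 where the probe sets of a gene were averaged. It was 0.25 with the g probe set of Lep in place of the stronger one. Adipoq and Car3 counted among the 6 genes only through their knockout signal, their wild-type means being under the filter.

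Lists of related adipocyte genes had medians between -0.23 and 0.25, against 0.61 for the 6 adipocyte genes. With the g probe set of Lep the 6 genes had a median of 0.25, like the list of other adipokines and receptors. Where a gene's probe sets were averaged, the median was 0.26 for the 6 genes and 0.26 for the lipogenesis list. Their counts without overlap stand beside the same 19.9% (higher) and 17.5% (lower) of all genes. No gene of these lists passed the threshold. Of 15 genes of lipid storage and uptake tested, 2 were higher without overlap and 3 lower (median log2 difference -0.06). Plin4, a droplet coat protein of adipocytes and striated muscle, gave 1846 and 1719 in knockout against 2515 and 2933 in wild type, and Aqp7, the channel through which adipocytes release glycerol, gave 727 and 702 (701.5 for replicate 2) against 595 and 454. Plin4 thus stood on the side of Cidea, and Aqp7 on that of Adipoq and Lipe.

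Among 7 lipogenesis genes, 3 were higher without overlap and 1 lower (median 0.15). Me1, malic enzyme, which supplies NADPH for fatty acid synthesis, gave 4740.2 and 4069 in knockout against 2800.4 and 2804 in wild type, and Acly, which makes cytosolic acetyl-CoA, gave 2251 and 2135 against 1779 and 1871. Of 11 adipogenic regulators, 2 were higher and 0 lower without overlap (median 0.00). They were Cebpa, the gene of C/EBPα, with 3183 and 2864 in knockout against 2404 and 2300 in wild type (2299.9 for replicate 2), and Rxra, the partner of PPARγ, with 1586 and 1535 against 1311 and 1283. A second Rxra probe set gave 1473 and 573 against 1587 and 579, with replicates of a genotype further apart than the genotypes.

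Of 8 other adipokines and adipokine receptors tested, 3 were higher and 0 lower without overlap (median 0.25). Rarres2, the gene of the adipokine chemerin, gave 3025 and 2718 in knockout (2717.5 for replicate 2) against 2083 and 2426 in wild type, and Adipor1, an adiponectin receptor, gave 1287 and 1134 against 1126 and 824. The receptor genes Adipor2 and Cdh13, a surface protein that binds adiponectin, had overlapping groups. They are named after their values were seen, with 3784 and 3197 against 3348 and 3529 for Adipor2 and 2862 and 3513 against 2274 and 4438 for Cdh13.

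The brown adipocyte list, which includes Cidea, had 1 gene higher and 3 lower without overlap among 6 tested (median -0.23). Besides Cidea these were Ppargc1a, the gene of PGC-1α, at 793 and 589 in knockout against 368 and 435 in wild type, and the cytochrome oxidase subunit genes Cox8b and Cox7a1, which heart muscle also expresses, with log2 differences of -0.26 and -0.25. The last pair was named after its values were seen, as were the following genes that mark fat cells. Ucp1, the uncoupling protein that defines brown fat, gave 309 and 259.5 in knockout against 155 and 270.0 in wild type on its stronger probe set, under the filter. Cidec, a droplet protein of white adipocytes, gave 25.4 and 138 against 64.6 and 32.4. Leaving out each array gave medians of -0.15 to 0.03 for lipid storage and uptake, 0.12 to 0.22 for lipogenesis, 0.10 to 0.31 for the other adipokines and receptors and -0.33 to -0.18 for the brown adipocyte list. The median of the adipogenic regulators was 0.28 without knockout replicate 2. With no filter the median of the brown adipocyte list was 0.00 over 11 genes, which then included Ucp1, Dio2, Elovl3, Zic1 and Lhx8. Cidec and Retn were at or near the floor on every array, Ucp1 was weak, and Adipoq lay above the floor on all 4.

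**Figure D3:**
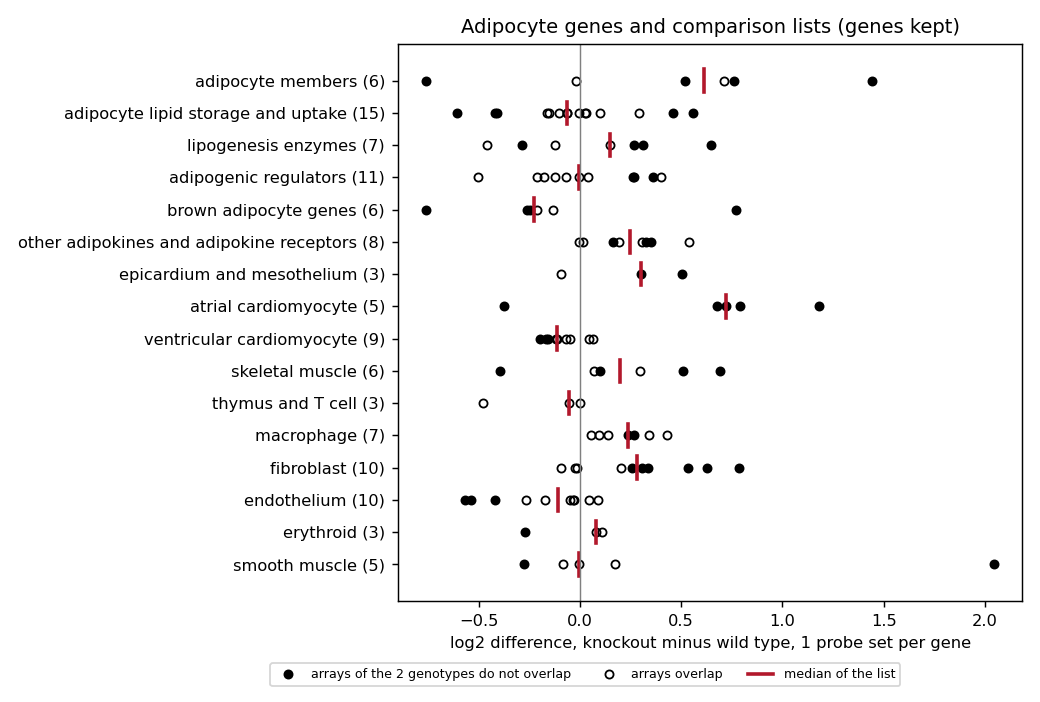
Log2 difference, knockout minus wild type, of every gene tested in the adipocyte group and in 15 comparison lists, 1 probe set per gene, with the number of genes in brackets. Filled points are genes whose arrays do not overlap between genotypes and red bars are medians, 0.61 for the adipocyte genes and 0.72 for the atrial list.

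Markers of other cell types that a ventricle sample can hold were summed on each array beside the adipocyte genes. No gene of these lists passed the threshold, the shares of all genes without overlap remain 19.9% (higher) and 17.5% (lower), and the part of these cells in the adipocyte values was not tested. The summed signal of the 8 adipocyte genes was 8470.0 and 9155 in knockout against 7744 and 7141 in wild type (7140.5 for replicate 2). That separation rested on which Lep probe set was used: with the g probe set the sums were 6936 and 7358 in knockout against 6672 and 7738 in wild type, and they overlapped. Atrial markers summed to 19369 and 19504 in knockout against 12557 and 11133 in wild type, with 4 of 5 genes tested higher and 1 lower without overlap (median 0.72). Nppa, named after its values were seen, was the largest part of that sum on every array, at 12669 and 9603 in knockout against 7980 and 5605 in wild type. Dkk3 gave 776 and 848 against 530 and 487 (529.9 for replicate 1), and Myl4, the atrial light chain, 2201 and 3663 against 1052 and 1494 (2200.5 for knockout replicate 1). The lower gene was Kcna5, also named after its values were seen, at 995 and 1249 in knockout against 1264 and 1655 in wild type. The epicardial and mesothelial list summed to 3633 and 3613 in knockout against 3221 and 2893 in wild type (3220.5 and 2892.5 before rounding), with 2 of 3 genes tested higher without overlap (median 0.30). Wt1 gave 409 and 463 against 335 and 283, Upk3b gave 1435 and 1153 against 1139.9 and 955, and Aldh1a2 and Krt19 were under the floor on all arrays. The epicardial median was 0.01 with no filter. Leaving out knockout replicate 1 gave 0.14, leaving out wild-type replicate 1 gave 0.52, and leaving out wild-type replicate 2 gave 0.17.

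Fibroblast markers were higher without overlap for 6 of 10 genes and lower for 0 (median 0.28), and summed to 89180.2 and 92692 in knockout against 65795 and 76773 in wild type. Lum gave 5104 and 6196 against 2791 and 3809, and Col1a1 4802 and 6781 against 3354 and 4080.4. Skeletal muscle markers, relevant to Car3, summed to 11858 and 8624 in knockout against 7568 and 7682 in wild type (median 0.20 over 6 genes, 3 higher and 1 lower without overlap). Mylpf gave 773 and 871 against 535 and 620.0, Pvalb 6744 and 3715 against 3126 and 3063, and Myh2 was under the floor on all arrays. Leaving out either replicate 2 brought the skeletal muscle median to 0.38 (knockout) and 0.32 (wild type). Smooth muscle markers summed to 30512 and 22635 in knockout (22634.5 for replicate 2) against 16522 and 16715 in wild type. Acta2 alone gave 18753 and 10916 against 4135 and 2909, while the median over 5 genes was 0.00 with 1 higher and 1 lower without overlap, the lower being Des at 6268 and 6250.1 against 6990.0 and 8236. Without wild-type replicate 2 the smooth muscle median was 0.35.

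Capillary endothelium and macrophages also express Fabp4. Endothelial markers were lower without overlap for 3 of 10 genes and higher for 0 (median -0.11), and summed to 42566 and 41098 in knockout against 50301 and 44693 in wild type. Tie1 gave 2743 and 2145 against 3924 and 3286, and Cdh5 3605 and 4027 against 6584 and 4636 (3604.5 and 4635.5 before rounding). Leaving out knockout replicate 1 gave an endothelial median of -0.20, leaving out wild-type replicate 1 gave -0.18, and leaving out wild-type replicate 2 gave -0.26. Macrophage markers were higher without overlap for 2 of 7 genes tested and lower for 0 (median 0.24). The list summed to 23172 and 21385 in knockout against 20494 and 19111 in wild type. Cd14 gave 3943 and 4163 against 3375 and 3369.9 (3374.5 for replicate 1), while Lyz2, whose near-copy Lyz1 may share its signal, gave 4281 and 3318 against 3339 and 2648 and overlapped. Adgre1 and Itgam of this list were under the filter, were not tested, and are named after their values were seen. Adgre1 was lower in knockout without overlap, at 176 and 202 against 396.5 and 499.7. Itgam was higher, at 156 and 330.1 against 88.3 and 81.3, with both wild-type arrays under the floor. Leaving out knockout replicate 1 gave a macrophage median of 0.10, and leaving out wild-type replicate 1 gave 0.15. Fabp4 itself had overlapping groups, as given above.

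The remaining lists had overlapping sums or lower ones in knockout. Ventricular cardiomyocyte markers had a median of -0.11 over 9 genes, with 0 higher and 2 lower without overlap, and summed to 810973 and 981929 in knockout against 955734 and 980303 in wild type. The 2 lower genes were Tnnt2, at 85428 and 89711 against 99494 and 101481, and Tnni3, at 141450 and 165572 against 176384 and 165705. The ventricular median was 0.04 without knockout replicate 1 and -0.27 without knockout replicate 2. Thymus and T cell markers, a check on tissue beside the heart, had 0 of 3 genes tested apart (median -0.05), with a summed 3372 and 3203 in knockout against 3893 and 3447 in wild type, and Cd3g, Cd3d, Rag2, Cd8a and Cd8b1 were under the floor on all arrays. Its Cd4 gave 506 and 585 against 1242 and 464, and its Rag1 1032 and 943 against 1041 and 1009. The median of this list ran from -0.25 to 0.01 without each array. Erythroid markers had 1 of 3 genes lower and 0 higher without overlap (median 0.08), with a summed 157742 and 223518 in knockout against 204517 and 148949 in wild type. That gene was Slc4a1, at 754 and 743 against 916 and 890.3, while Hba-a1, which has a near-identical copy, gave 152458 and 215951 against 197193 and 143861. The erythroid median had no fixed sign, running from -0.23 to 0.36 without each array.

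**Figure D4:**
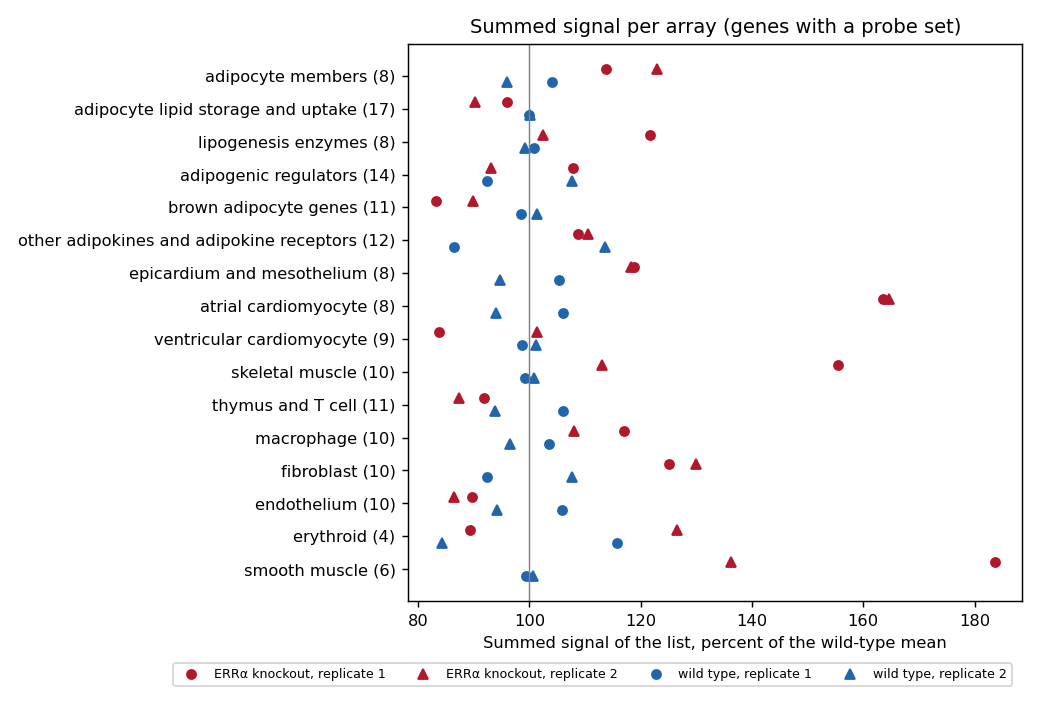
Summed signal of each list on each array as a percentage of its wild-type mean, over genes with a probe set (number in brackets), with knockout in red above wild type in blue. The adipocyte genes stood at 114% and 123% in knockout against 104% and 95.9% in wild type, and, with the g probe set of Lep in place of the one drawn, at 96.3% and 102% against 92.6% and 107%. The atrial markers stood at 164% and 165% against 106% and 94.0%.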

How the data were processed

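Total RNA of 4 mouse ventricle samples was measured on 1-colour arrays. The deposited intensity of each probe set was linear and, as the values show, scaled by array. The summary software and background correction are not given in the sources used here. Of 12488 probe sets, 66 controls were left out. GEO's annotation named 1 gene for 10855, several for 396 and none for 1237; 10839 of the first matched RefSeq (GRCm38.p6), which was used for symbols and start regions. Probe sets whose mean was under the 40th percentile (350.6) were left out, signals were floored at the 20th percentile of all values (110.0), and the log2 values were fitted with limma 3.58.1 (R 4.3.3), with Benjamini-Hochberg adjustment over 7453 probe sets and a threshold of 0.05. The fit had 2 residual degrees of freedom, and the prior that limma draws from all probe sets tested added 2.55. With 2 arrays per genotype the smallest exact permutation p is 0.333, so none is given. The steps were tested on simulated data.

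The members and the 15 comparison lists were chosen with earlier results of these data known. Named genes were every probe set of the members and, of each list, those that passed or, where none did, the pair of lowest p; others are marked as named after their values were seen. Lists are described by counts and medians over the strongest probe set per gene, without a test. Alternatives changed the filter, the floor, the scaling, the prior, the pairing, the probe sets and the arrays included. For arrays, their number limits the precision.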

Additional observations from a re-analysis of the deposited data

How the results depend on the processing

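No member passed the threshold in any of the 13 settings tried: no filter, a filter at the 60th percentile, floors at the 5th and 40th percentiles, quantile normalization, median scaling, a trended robust prior, the replicate block, no probe sets with cross-hybridization suffixes, and each array left out. The median log2 difference of the adipocyte genes, 0.61, was 0.42 with no filter (8 genes), 0.25 with the stricter filter (4 genes), 0.44 with the floor at the 40th percentile, 0.26 with a gene's probe sets averaged, 0.25 with the g probe set of Lep (an alternative chosen after seeing the data), and 0.37 to 0.72 without each array. Median scaling moved the median of all genes to -0.11, and relative to it the members' median was 0.60. The stricter filter left 1 probe set at least 1.5-fold higher without overlap (that of Lep, with Adipoq filtered out), and without each array 2 to 3 were higher and 1 to 2 lower. Fabp4 ran from -0.10 to 0.060 and the g probe set of Lep from -1.79 to 0.27 without each array. These reversals were of values that did not pass, and their cause was not tested. With the replicate block the members' median stayed at 0.61 and 0 passed. Deviations of same-numbered arrays from their group means correlated at 0.01 across the probe sets tested. A correlation over all of them cannot exclude a pairing that touches only some, and the labels do not say whether the sample numbers pair the arrays. Adjusted p ran from 0.489 to 0.845 for Adipoq and from 0.347 to 0.875 for Cidea over the settings. With 2 arrays per genotype, changes below the intervals given could not be detected, and signals near the floor carry little information.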

Other observations

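For Pck1, Agt and G0s2, picked after their values were seen, knockout replicate 2 had the highest signal of the 4 arrays. Pck1, the enzyme that supplies glycerol for triglyceride in adipocytes, gave 50.8 and 673 (672.5) in knockout against 71.9 and 58.9 in wild type. It was under the floor on 3 of the arrays and, with its mean under the filter, was not tested. Agt, the angiotensinogen gene, which adipocytes and liver express, gave 259 and 761 against 347 and 269.8. G0s2, an inhibitor of the lipase ATGL, gave 1264 and 2464 against 1758 and 1547.

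Angptl4, a secreted inhibitor of lipoprotein lipase that PPARs induce, was measured by several probe sets with unlike values, and is named here, with Scd1, after those values were seen. Its strongest probe set gave 719 and 1251 in knockout against 618 and 674 in wild type, another gave 892 and 508 against 1003 and 706, and one more 505 and 800.3 against 192 and 484. Scd1, a fatty acid desaturase gene, gave 787 and 879 against 561 and 403 on one probe set and 1776 and 2687 against 1963 and 1975 on a stronger one.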
